A study of Mus musculus with 18 samples.

Results

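FF cells treated with 4-hydroxytamoxifen (4OHT) were compared with Het cells given the same drug. In the labels, treated FF cells have the Ddx41 genotype -/- and treated Het cells +/-, so the comparison sets cells without the gene against cells with 1 allele left, and the drug is on both sides. It rests on 6 of the 18 libraries of the series, the deposited count columns of FF_4OHT A, B and C and of Het_4OHT A, B and C. The 6 libraries FF_EtOH A to C (flox/flox) and Het_EtOH A to C (+/flox), given ethanol, show which differences existed without the drug.

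The cells are immortalized mouse hematopoietic progenitors: marrow depleted of lineage-marked cells received the leukemia fusion gene MLL-AF9 from a retrovirus and was kept in interleukin-3, interleukin-6 and stem cell factor. The cells also carry CreERT at Rosa, a recombinase that works only once 4OHT is given, and were exposed to 1 µM 4OHT or ethanol for 48 h. The sampling time precedes the death of cells without either allele, per the series' design text. The labels do not say how many lines stand for a genotype or whether the letters A to C are separate cultures, so p-values here reflect spread among libraries that may be no more than technical repeats. A difference of genotype and a difference between cell lines cannot be told apart.

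Ddx41 is a DEAD-box RNA helicase that associates with the catalytic spliceosome, has been described as a sensor of cytosolic DNA, and in people is a gene of inherited predisposition to myeloid leukemia. Many small nucleolar RNAs (snoRNAs), which guide chemical modification of ribosomal RNA, are cut from introns of host transcripts after splicing. The p53 pathway responds to DNA damage and to disturbed ribosome assembly by inducing genes that stop the cell cycle or start cell death.

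The 12 libraries held between 24730213 and 49277884 counts, and the 6 treated libraries between 24730213 and 33203352. Het_4OHT A stood apart: its mean correlation with its own group was 0.964, against 0.976 and 0.98 for Het_4OHT B and C and 0.994 to 0.996 in FF_4OHT. It had 13565 genes detected, while the other treated libraries had 14517 to 15069. The library labelled FF_EtOH C went against its label: in plain CPM (counts over library totals), Eif2s3y was at 83.6 there, 0 in the other FF libraries and 65.4 to 95.6 in the WT libraries other than WT_4OHT C. Skida1 was at 30.3, 0 to 0.0773 and 22.9 to 29.4 CPM in the same order, and Vcam1 at 362, 94.6 to 146 and 331 to 397 CPM. It thus lay with WT and not with FF at these genes, and an ethanol value that includes it may not be one of 3 FF libraries. Ethanol values below are with all 6 libraries. The value without FF_EtOH C is added where it changes the call of an ethanol value given for a named gene. It is also added where it moves a list's count of calls in ethanol by more than 1.5 times, and for some moves of a gene's difference. Where it is not added, ethanol differences that were not called could still move by more than 1.5 times. Relb (0.30, and 0.12 without FF_EtOH C) and Slc1a4 (-0.18 and -0.40) are examples. Among markers of other blood lineages, 6 of 15 erythroid genes, the globin genes Hba-a1 and Hbb-bs among them, and 8 of 21 lymphoid genes, Cd3e and Ms4a1 among them, had 0 counts in all 6 treated libraries. The erythroid list summed to 490 to 703 CPM in FF_4OHT and 340 to 1030 CPM in Het_4OHT, the megakaryocyte list to 328 to 375 and 307 to 460 CPM, and the lymphoid list to 8.63 to 10.8 and 13.6 to 15.5 CPM. Kit, the receptor for stem cell factor, was at 91.0 to 100 CPM in FF_4OHT and 62.5 to 74.8 CPM in Het_4OHT, while the progenitor marker Itga2 had 0 counts in all 6. CPM are counts scaled to library totals after TMM normalization over the 12 FF and Het libraries.

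Ddx41 (GRCm38 chromosome 13, 55530410 to 55536658, minus strand, protein coding) was lower in FF. It stood at 14.9, 16.9 and 18.1 CPM in FF_4OHT A, B and C and at 57.9, 44.1 and 42.1 CPM in Het_4OHT A, B and C. All 3 FF libraries lay below all 3 Het libraries, and the FF mean was 34.6% of the Het mean (16.6 ± 1.6 against 48.0 ± 8.6 CPM, SD, n = 3). The log2 difference, FF minus Het as everywhere below, was -1.53 ± 0.18 SE (edgeR adjusted p = 0.0024), and -1.36 without Het_4OHT A (edgeR adjusted p = 1.24e-04). In ethanol the sign was the other way: 113, 82.6 and 73.3 CPM in FF_EtOH and 72.5, 70.1 and 81.0 CPM in Het_EtOH gave a log2 difference of 0.28 (edgeR adjusted p = 0.313), and 0.41 without FF_EtOH C (0.12). The treated difference exceeded the ethanol difference by -1.80 (edgeR adjusted p = 0.0279). Counts per gene hold no exon-level values, so the share of recombined alleles was not measured.

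Across all genes, 2238 of 12398 tested (18.1%) differed between treated FF and treated Het cells at an edgeR adjusted p under 0.05. Of these, 951 (7.67% of those tested) were higher in FF and 1287 (10.4%) lower, and 1321 differed at least 2-fold, 539 of them higher (4.35%) and 782 lower (6.31%). With library totals in place of TMM as the scaling, the split was 746 higher and 1673 lower, and the median over all genes moved from 0 to -0.10. Without Het_4OHT A, 4956 of 12636 genes (39.2%) were called, 2310 higher (18.3%) and 2646 lower (20.9%). The smaller set lay almost wholly inside the larger: 2233 genes were called in both with the same sign, none with opposite signs, and 5 were called only with all 6 libraries. Another 2608 genes tested in both were called only without Het_4OHT A, and 115 were tested only there. The median standard error of the log2 difference was 0.215 with all 6 libraries and 0.138 without Het_4OHT A.

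**Figure D1:**
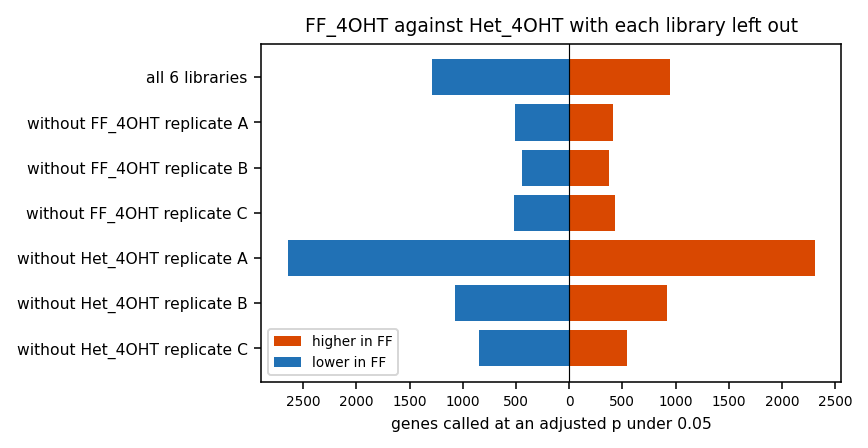
Genes called higher (right) or lower (left) in FF_4OHT than in Het_4OHT at an edgeR adjusted p under 0.05, with all 6 libraries and with each left out. The bar is longest without Het_4OHT A (4956 genes) and shortest without FF_4OHT B (813 genes).

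Leaving out any FF_4OHT library had the opposite effect on the treated difference to leaving out Het_4OHT A: 929, 813 and 948 genes were called without FF_4OHT A, B and C, and 1385 without Het_4OHT C. The number of calls thus moved by more than 1.5 times with 5 of the 6 libraries, and without Het_4OHT B it was 1992.

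In ethanol, 1754 of 12206 genes (14.4%) already differed between FF and Het, 769 higher in FF (6.30%) and 985 lower (8.07%); without FF_EtOH C the count was 1850 of 12442 (14.9%), 785 higher (6.31%) and 1065 lower (8.56%). The ethanol and the treated comparison share no library. Of the 12085 genes tested in both, 2154 were called in 4OHT, and 981 of these were called in ethanol with the same sign, which is 45.5% of the treated calls and 57.5% of the ethanol calls. Only 2 were called with opposite signs. The remaining 1171 were not called in ethanol, and 929 of them had the same sign there. The genes called in both had a median size of 1.74 on the log2 scale in 4OHT and 1.69 in ethanol, while those called only in 4OHT had a median of 0.87 in 4OHT and 0.27 in ethanol in the treated direction. The shared 45.5% became 28.7% without Het_4OHT A, 47.0% without FF_EtOH C and 29.1% without both, since many more treated genes were called without Het_4OHT A (4745 of those tested in both). The number of shared genes rose from 981 to 1360 without Het_4OHT A and 1400 without both. Their share of the ethanol calls, 57.5%, became 78.5% without Het_4OHT A, 57.9% without FF_EtOH C and 77.1% without both.

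A gene missed in ethanol is not by that shown to be equal there, so the difference between both differences was tested in 1 fit to the 12 libraries. It called 57 of 12725 genes (0.448%), 12 with a more positive difference in 4OHT (0.0943%) and 45 with a more negative one (0.354%). With a replicate block by letter over all 12 libraries the count was 1 (Dhx16). The labels state no pairing, but Het libraries of the same letter deviated alike in both treatments (correlations of 0.52, 0.78 and 0.44 for A, B and C). With a replicate block within Het, unplanned and added after these data had been seen, the count was 300 (2.36%), 129 positive (1.01%) and 171 negative (1.34%). Calls with this block, here and below, do not replace those of the main fit, and its list counts stand against these shares. In fits without the block, leaving out FF_EtOH C gave 24 (4 positive, 0.0309%, and 20 negative, 0.155%). Leaving out Het_4OHT A gave 300, and leaving out both 373 (92 positive, 0.715%, and 281 negative, 2.18%). All 57 genes were among those called under the block within Het and among those called without both libraries, and 18 of them were among the 24. Of the 1171 genes called in 4OHT and not in ethanol, 48 were called here and 1123 were not, so for most treated differences these libraries do not settle whether they exceed the ethanol difference. Leaving out 1 of the 12 libraries gave 1 gene in 7 fits, 2 genes without FF_EtOH B, and 21 to 300 in the other 4, and Dhx16 was called in all 12.

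**Figure D2:**
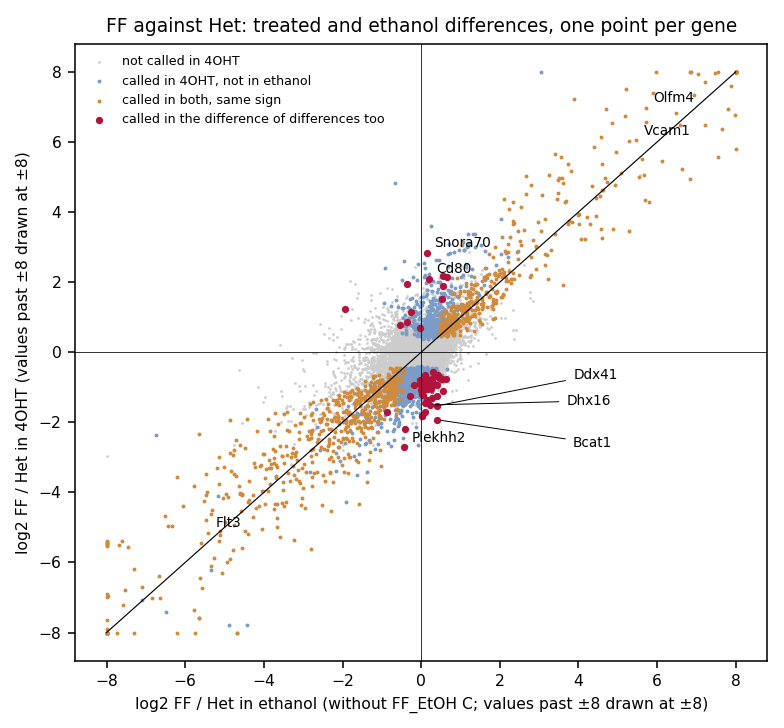
Each point is 1 of 12194 genes, with its log2 FF to Het difference in ethanol (x, without FF_EtOH C) and in 4OHT (y); the diagonal marks equal differences. The 1023 orange genes, called in both, follow the diagonal, while the 59 red genes, called in the difference of differences with all 12 libraries or without FF_EtOH C, lie mostly near 0 in ethanol and away from 0 in 4OHT.

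Among the genes that exceeded their ethanol difference, Dhx16 had the smallest adjusted p. It encodes a DEAH-box helicase that remodels the spliceosome before its first catalytic step (chromosome 17, 35879819 to 35892670, plus strand). Dhx16 stood at 39.2, 39.0 and 36.0 CPM in FF_4OHT and at 111, 105 and 109 CPM in Het_4OHT, with 130, 112 and 113 CPM in FF_EtOH and 103, 99.0 and 108 CPM in Het_EtOH. The 3 FF_4OHT libraries lay far below the other 9. Among those 9 the Het_4OHT and Het_EtOH libraries overlapped, and the FF_EtOH libraries (lowest 111.6 CPM) lay just above them (highest 111.0 CPM). The treated log2 difference was -1.51 ± 0.12 (edgeR adjusted p = 6.89e-04), the ethanol difference 0.20 (0.236), and the difference of differences -1.70 (6.27e-04, and 0.0029 without FF_EtOH C). Of 35 tested spliceosome genes listed as partners of Ddx41, 4 were higher in FF (11.4%, against 7.67% of all genes) and 1, Dhx16, was lower, with a list median of 0.12 against 0 for all genes. Without Het_4OHT A, 8 were higher and 2 lower (22.9% and 5.7%, against 18.3% and 20.9% of all genes). The 2 lower were Dhx16 and Eftud2 (-0.36). The 4 higher with all 6 libraries were Prpf3 (0.66), Dhx38 (0.53), Cdc5l (0.48) and Sf3b4 (0.48). In ethanol 5 members of the list were higher (14.3%, against 6.3% of all genes), Sf3b4 and Cdc5l among them. Without FF_EtOH C 4 were higher in ethanol (11.4%, against 6.3% of all genes), and Cdc5l was not called. Prpf3, a tri-snRNP protein, stood at 127 to 129 CPM in FF_4OHT and 73.3 to 91.3 CPM in Het_4OHT.

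Among H/ACA snoRNAs, which guide pseudouridylation, 10 of 26 tested were higher in FF (38.5%, against 7.67% of all genes) and none lower, with a median of 1.4. Among C/D snoRNAs, which guide ribose methylation, 18 of 40 were higher (45.0%) and none lower, with a median of 1.35. In ethanol neither list had a call, with medians of -0.04 over 20 and 0.33 over 29 members. Without FF_EtOH C, 2 of 23 H/ACA members were higher in ethanol (Snora81 and Snora62), and of 31 C/D members Snord2 was higher and Snord99 lower. The medians of the difference of differences were 1.35 and 1.27, with 1 H/ACA call and no C/D call, 3 and 1 with the replicate block within Het, and none in either list without FF_EtOH C. Without Het_4OHT A, 20 of 27 and 24 of 46 were called higher (74.1% and 52.2%, against 18.3% of all genes). Of the members found in the count table, 36 H/ACA and 74 C/D, the rest did not pass the count minimum, and 4 and 13 had 0 counts in all 6 treated libraries.

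Snora70 and Snora7a are shown because Snora70 was the one snoRNA of these lists called in the difference of differences and Snora7a was called there with the replicate block within Het; capitals mark the ACA box near the 3′ end that defines H/ACA snoRNAs. Both sequences are GENCODE M21 transcripts on GRCm38. Snora70 lies at chrX:74272484-74272620 (plus strand), inside the span of the ribosomal protein gene Rpl10, and Snora7a at chr6:115807975-115808114 (minus strand), inside the span of Rpl32.
Snora70: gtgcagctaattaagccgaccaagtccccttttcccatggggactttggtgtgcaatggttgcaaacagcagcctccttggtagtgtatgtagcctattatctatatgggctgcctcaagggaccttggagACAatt
Snora7a: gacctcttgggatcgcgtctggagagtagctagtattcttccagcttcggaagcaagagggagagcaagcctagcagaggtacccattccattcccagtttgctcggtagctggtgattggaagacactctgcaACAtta

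Snora70 was at 12.9, 14.3 and 19.1 CPM in FF_4OHT and at 2.58, 1.82 and 2.06 CPM in Het_4OHT. The FF_EtOH libraries, at 1.57, 3.65 and 1.93 CPM, lay with the Het_EtOH libraries at 2.48, 2.17 and 2.56 CPM. Its treated log2 difference was 2.84 ± 0.25 (edgeR adjusted p = 0.00103), 3.01 without Het_4OHT A, and its ethanol difference 0.00 (0.999). The difference of differences was 2.85 (edgeR adjusted p = 0.0279), and 2.69 without FF_EtOH C (0.0525). Snora7a had 10.7, 8.85 and 12.2 CPM in FF_4OHT and 2.93, 0.882 and 1.59 CPM in Het_4OHT, a log2 difference of 2.55 (edgeR adjusted p = 0.00878), and its difference of differences, 2.63 (0.066), was called with the replicate block within Het (0.0147). Snora2b (2.65) and Snora16a (2.39) were close to it. The C/D members with the smallest adjusted p were Snord16a (2.92), Snord49b (3.38), Snord58b (2.64) and Snord55 (2.90).

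Summed over snoRNAs, the plain CPM were 175, 173 and 172 in FF_4OHT and 74.8, 67.6 and 74.2 in Het_4OHT, and 59.0 to 81.2 in the 6 ethanol libraries. Rn45s, the ribosomal RNA precursor, made up 0.60%, 1.82% and 4.0% of counts in FF_4OHT A, B and C and 1.48%, 0.213% and 0.35% in Het_4OHT A, B and C. FF_4OHT A had a snoRNA level close to that of FF_4OHT C at the lower Rn45s share, and any link between both measures was not tested. How reads inside host introns were assigned is not given in the sources used here.

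Of 13 tested host transcripts of snoRNAs, 5 were higher in FF (38.5%, against 7.67% of all genes) and none lower (median 0.77). Without Het_4OHT A 10 were higher (76.9%, against 18.3% of all genes, median 1.14). None was called in ethanol (median 0.03, and 1 call without FF_EtOH C). Snhg1, the host of several C/D snoRNAs, was at 273, 262 and 235 CPM in FF_4OHT and 81.7, 55.0 and 69.4 CPM in Het_4OHT. Its lowest FF library was above the highest Het library, and its log2 difference was 1.90 ± 0.18 (edgeR adjusted p = 0.00125), with 0.40 in ethanol (0.166, and 0.55, 0.0427, without FF_EtOH C) and a difference of differences of 1.51 (0.0352). Dancr (1.52), Snhg3 (1.14), Gas5 (0.94) and Snhg4 (0.94), transcripts that encode no known protein, were also called. In the difference of differences 1 host was called, Snhg1, with 5 of 13 under the replicate block within Het and none without FF_EtOH C (Snhg1 1.34, edgeR adjusted p = 0.0581). Het_4OHT A exceeded both other Het_4OHT libraries at 12 of the 13 hosts, by a median of 0.62 over their mean on the log2 scale.

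**Figure D3:**
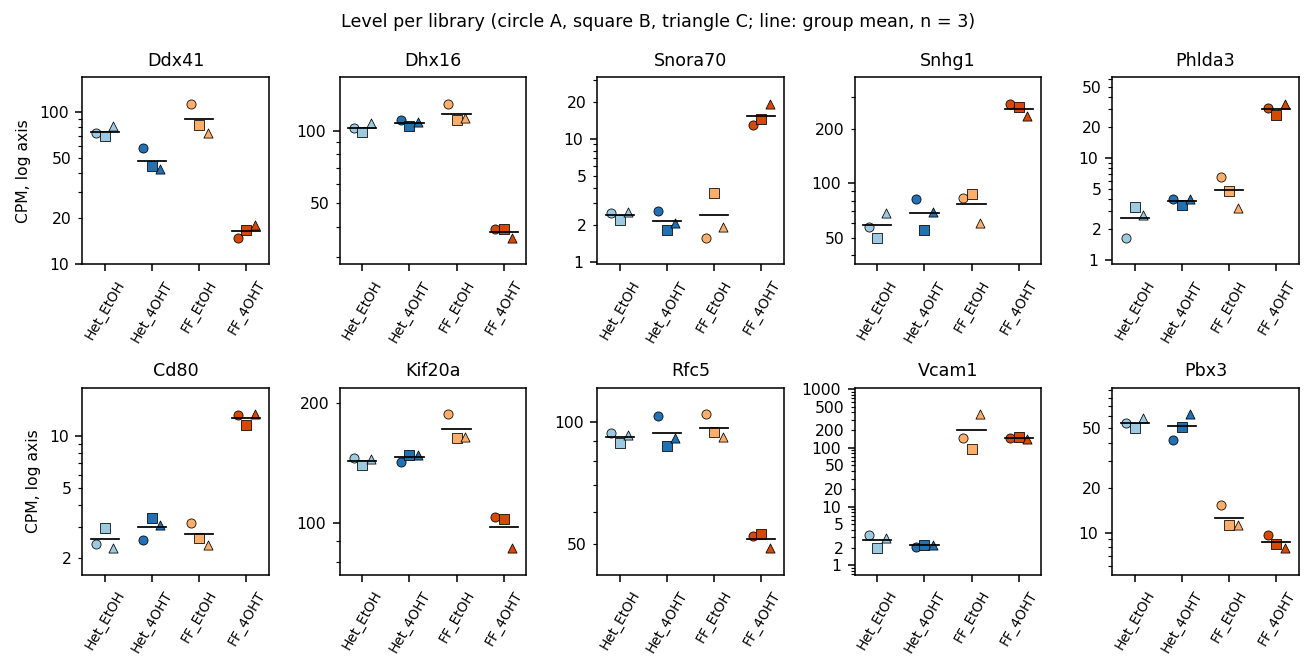
CPM on log axes of 10 genes in the 12 libraries, with group means as lines. In Dhx16, Snora70, Snhg1, Phlda3, Cd80, Kif20a and Rfc5 the 3 FF_4OHT libraries lie apart from the other 9, whereas Vcam1 and Pbx3 part FF from Het in both treatments.

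Of the genes induced by p53, 16 of 33 tested were called higher in FF (48.5%, against 7.67% of all genes) and none lower (median 0.70). In ethanol 6 of 32 were already higher (18.8%, against 6.3% of all genes, median 0.25). Of the 16, 5 were also called in ethanol. Without Het_4OHT A, 19 were higher and 2 lower (57.6% and 6.1%, against 18.3% and 20.9% of all genes). Phlda3, an inhibitor of Akt signalling, stood at 31.3, 26.5 and 33.8 CPM in FF_4OHT and 3.98, 3.50 and 3.96 CPM in Het_4OHT. Its log2 difference was 3.0 ± 0.18 (edgeR adjusted p = 3.36e-04), with 0.93 in ethanol (0.139) and a difference of differences of 2.08 that missed the threshold (0.0508) and was called with the replicate block within Het (0.0348). Cd80, a ligand of the T cell receptors CD28 and CTLA-4 that the p53 list holds, was at 13.2, 11.5 and 13.3 CPM against 2.51, 3.39 and 3.08 CPM. Cd80 was 2.08 higher on the log2 scale (edgeR adjusted p = 0.00116) with 0.10 in ethanol (0.838). It was the list's single call in the difference of differences (1.99, edgeR adjusted p = 0.0279). The unplanned block within Het gave 8 of 34 there, all positive (against 1.01% of all genes). Btg2, an antiproliferative gene, differed by 1.67 in 4OHT and by 1.00 in ethanol (edgeR adjusted p = 0.0251), and Psrc1, a spindle protein gene, by 1.29 and 0.64 (0.0771).

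In the G2/M and mitosis list 15 of 39 were called lower (38.5%, against 10.4% of all genes) and none higher (median -0.43). Without Het_4OHT A 28 were lower (71.8%, against 20.9% of all genes). In ethanol 2 were higher, Kif23 (0.55) and Kif18b (0.53), and none lower (median 0.13), and 4 were higher without FF_EtOH C. The median of the difference of differences was -0.53, with 1 call, Kif20a, with 6 under the replicate block within Het and none without FF_EtOH C (Kif20a -0.90, edgeR adjusted p = 0.0526). Kif20a, a mitotic kinesin gene, was at 104, 103 and 86.8 CPM in FF_4OHT and 142, 148 and 148 CPM in Het_4OHT. In ethanol FF had the higher values, 187, 163 and 164 CPM against 146, 140 and 145 CPM. Its log2 differences were -0.58 in 4OHT (edgeR adjusted p = 0.0184) and 0.27 in ethanol (0.114), and the difference of differences was -0.84 (0.0382). Cdc25b, a phosphatase that activates mitotic kinases, differed by -0.77, Kif2c, a microtubule depolymerase, by -0.62, and Aurkb, the chromosomal passenger kinase, by -0.63.

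Promoters are shown for Cdc25b and Kif2c, the members with the smallest adjusted p, because many genes of this class share 2 elements: the CHR, TTTGAA, and the CCAAT box bound by NF-Y. Each run is the last 120 bases before the RefSeq start site (GRCm38.p6), at chr2:131186828-131186947 on the plus strand and chr4:117178773-117178892 on the minus strand, with either motif on either strand in capitals. The Kif2c run lies inside the GENCODE span of the gene (117159639 to 117182639), so the RefSeq start used differs from the GENCODE gene start. Neither run holds both motifs: Cdc25b has CCAAT alone, as ATTGG, and Kif2c has TTTGAA alone, as TTCAAA.
Cdc25b: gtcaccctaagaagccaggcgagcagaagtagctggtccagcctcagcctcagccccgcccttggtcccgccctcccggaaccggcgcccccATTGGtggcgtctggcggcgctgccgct
Kif2c: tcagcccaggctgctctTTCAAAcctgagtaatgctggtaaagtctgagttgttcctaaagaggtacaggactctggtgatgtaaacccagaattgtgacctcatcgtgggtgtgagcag
Over windows from 250 bases before to 50 after the start, TTTGAA was present on either strand in 76.5% of 34 windows of the list (32 of 39 genes had a window) and in 17.9% of all 32851 windows. CCAAT was present in 79.4% and 37.4%, and both in 67.6% and 6.95%. In the S phase and p53 target windows CCAAT was present in 57.5% and 52.8%, and TTTGAA in 12.5% and 13.9%. A match of letters is not a measured binding site.

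In the S phase and replication list 10 of 43 were lower (23.3%, against 10.4% of all genes) and none higher (median -0.36). It was 24 without Het_4OHT A (55.8%, against 20.9%) and 21 with scaling by library totals (48.8%, against 13.5%). There was no call in ethanol (median 0.07) and there were 2 in the difference of differences (median -0.40), 5 with the replicate block within Het and 1 without FF_EtOH C. Rfc5, a subunit of the clamp loader, was at 52.3, 52.8 and 48.9 CPM in FF_4OHT and 103, 87.3 and 91.5 CPM in Het_4OHT, and at 91.6 to 104 and 88.5 to 94.0 CPM in FF_EtOH and Het_EtOH. Its treated log2 difference was -0.87 ± 0.13 (edgeR adjusted p = 0.00504) and the difference of differences -0.95 (0.0279). Pold1, the catalytic subunit of DNA polymerase delta, differed by -0.73 in 4OHT and 0.10 in ethanol, with a difference of differences of -0.82 (edgeR adjusted p = 0.0408, and 0.0548 without FF_EtOH C). Tk1 (-1.02), which salvages thymidine, and Prim2 (-0.71), a primase subunit, were called in 4OHT but not in the difference of differences (edgeR adjusted p = 0.0508 and 0.0722), where Tk1 was called with the replicate block within Het (0.0351).

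Of the amino acid genes controlled by the transcription factor ATF4, 12 of 31 were called lower in FF and none higher (median -0.57). That is 38.7%, against 10.4% of all genes. It was 21 of 32 without Het_4OHT A (65.6%, against 20.9%) and 18 with scaling by library totals (58.1%, against 13.5%). In ethanol 5 of 32 were lower (15.6%, against 8.07% of all genes, median -0.01). The difference of differences called 3 (median -0.54), 6 with the replicate block within Het and none without FF_EtOH C. The 3 were Phgdh (-0.99), of serine synthesis, Aldh18a1 (-0.89), of proline synthesis, and Slc1a5 (-1.11), a glutamine transporter. Slc1a4, a neutral amino acid transporter, was at 7.55, 7.16 and 6.84 CPM in FF_4OHT and 19.1, 19.7 and 21.1 CPM in Het_4OHT (log2 -1.47, edgeR adjusted p = 0.00143, against -0.18 in ethanol, 0.615). Pycr1, a proline synthesis enzyme, differed by -1.75 in 4OHT and -0.72 in ethanol, and Mthfd1l, of mitochondrial folate metabolism, by -1.12 and -0.77, both called in each. Cth, which makes cysteine, was at 3.10 to 3.87 CPM in FF_4OHT and 15.0 to 18.1 CPM in Het_4OHT (-2.28). For Cth the ethanol comparison turned on FF_EtOH C: the libraries were at 10.4, 10.1 and 56.1 CPM, and the difference was 0.22 with it (edgeR adjusted p = 0.859) and -1.09 without (0.00365).

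The genes with the largest differences beyond ethanol, chosen from all genes, were of mixed function. Acpp, an acid phosphatase, had 178, 156 and 120 CPM in FF_4OHT and 33.4, 27.6 and 42.4 CPM in Het_4OHT, a log2 difference of 2.14 (edgeR adjusted p = 0.00161) that exceeded the ethanol difference by 1.66 (0.0407). Without FF_EtOH C its difference of differences was not called (1.45, edgeR adjusted p = 0.0644), and its ethanol difference was (0.66, 0.0139, against 0.49, 0.115). Slc38a7, a lysosomal glutamine transporter, was 1.51 higher, Rab40c, a small GTPase, 1.14, and Tti2, of the complex that stabilises the ATM and mTOR kinase family, 0.87, all on the log2 scale. Plekhh2, at 2.70, 3.0 and 2.47 CPM against 8.46, 23.2 and 22.5 CPM, differed by -2.72, with Het_4OHT A the lowest Het library. Bcat1, the cytosolic branched-chain aminotransferase, was at 3.91, 3.76 and 1.83 CPM against 9.04, 12.4 and 14.9 CPM (-1.93, edgeR adjusted p = 0.0099), and its difference of differences was -2.23 (0.0382). Of the genes of this paragraph, Rab40c and Tti2 were also called in the difference of differences without FF_EtOH C (edgeR adjusted p = 0.05 and 0.0484), and Slc38a7, Plekhh2 and Bcat1 were not (0.0708, 0.0688 and 0.0526).

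Gpt2, mitochondrial alanine aminotransferase, was lower in both treatments and more so in 4OHT: 27.0, 27.8 and 27.9 CPM against 82.5, 91.7 and 96.2 CPM gave -1.70 (edgeR adjusted p = 5.07e-04), the ethanol difference was -0.90 (0.00113), and the difference of differences -0.79 (0.0382, and 0.0526 without FF_EtOH C). Matk (-2.18), a kinase that restrains Src family kinases, Parvb (-1.81), an adhesion protein gene, and Ankrd13b (-1.70) were called in the difference of differences without FF_EtOH C and not with all 12 libraries; Matk was also called with the replicate block within Het (edgeR adjusted p = 0.0247). Ccdc107 differed by -1.83; it lies at chromosome 4, 43492900 to 43495921 (plus strand), and overlaps Rmrp on the minus strand (43492783 to 43493063), so that reads of both cannot be told apart where counting ignored the strand. Rmrp, the RNA of RNase MRP, was at 2.22, 6.86 and 28.6 CPM in FF_4OHT and 6.84, 0.0285 and 0.541 CPM in Het_4OHT, with groups that overlapped. Its log2 difference was 2.33 with all 6 libraries (edgeR adjusted p = 0.306) and 5.54 without Het_4OHT A (0.0313). Rpph1, the RNA of RNase P, and Dlc1, a GTPase-activating protein gene, were likewise called only without Het_4OHT A (3.75 and -3.22, against 1.62 and -2.74 with it).

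Csf2rb2 and Ssbp4 were the 2 genes called with opposite signs in the 2 treatments. Csf2rb2, an interleukin-3 receptor subunit gene, was lower in FF in ethanol (51.7 to 57.0 against 75.7 to 82.5 CPM, log2 -0.56, edgeR adjusted p = 0.00895) and higher in 4OHT (108 to 142 against 56.0 to 90.2 CPM, 0.76, 0.0363). Ssbp4, a transcription cofactor gene, went from 0.54 in ethanol to -0.75 in 4OHT, and its difference of differences was -1.29 (edgeR adjusted p = 0.0382, and 0.0526 without FF_EtOH C). Med25, a Mediator subunit gene, went from 0.40 to -0.78, and its ethanol difference was called only without FF_EtOH C (0.52, edgeR adjusted p = 0.0449).

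Many of the largest differences were already there in ethanol. Vcam1, an adhesion molecule that marks macrophages and stroma, was at 144, 150 and 138 CPM in FF_4OHT and 2.07, 2.25 and 2.23 CPM in Het_4OHT. In ethanol it was at 144, 95.7 and 372 CPM in FF and 1.98 to 3.25 CPM in Het. The log2 differences were 6.04 ± 0.14 in 4OHT (edgeR adjusted p = 5.45e-06) and 6.23 in ethanol (0.00173, and 5.47 without FF_EtOH C), and the difference of differences was -0.18 (0.921). Olfm4, a neutrophil granule gene, differed by 6.96 and 5.98, Ptprt, a receptor phosphatase gene, by 6.49 and 7.09, and Pira2, a paired immunoglobulin-like receptor gene, by 5.84 and 3.97. Fam115a differed by 6.73 and 5.95 (5.18 without FF_EtOH C). Slc7a14, a cationic amino acid transporter family member, had 1010 counts in FF_4OHT and 1 in Het_4OHT, a ratio of 1240 (exact 95% counting interval 222 to 49000). Its log2 difference was 9.8 in 4OHT and 5.8 in ethanol. The difference of differences, 4.04, missed the threshold (edgeR adjusted p = 0.0541) and was called with the replicate block within Het (3.96, 0.0482).

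Zfp488 had 0 counts in all 6 Het libraries and was at 18.3, 13.8 and 13.7 CPM in FF_4OHT. Against a floor of 3 counts over the group it was at least 486-fold higher in FF_4OHT and at least 269-fold higher in FF_EtOH. At the other end, Ikzf2, the Helios transcription factor gene, had 2870 counts in Het_4OHT and 2 in FF_4OHT, a ratio of 1170 (interval 323 to 9660). Plod2, a collagen lysyl hydroxylase gene, had 2249 and 3 counts (ratio 611, interval 209 to 2960). C1qtnf6 was at 26.9 to 43.0 CPM in Het_4OHT and 0.0403 to 0.0850 CPM in FF_4OHT (log2 -9.06).

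Eif2s3y had 0 counts in FF_4OHT and 7764 in Het_4OHT, at least 2110-fold lower in FF against the floor, and Erdr1 had 0 and 1057, at least 287-fold lower. Both also had 0 counts in FF_EtOH A and B, but stood at 85.8 and 56.5 CPM in FF_EtOH C. The other Y-linked genes Kdm5d, Uty and Ddx3y were present in FF libraries, at 24.8 to 48.1, 19.6 to 39.1 and 60 to 99.4 plain CPM in the 5 FF libraries other than FF_EtOH C.

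The locus of the microRNA gene Mir682 (chromosome 13, 75645046 to 75645141, plus strand) was at 43.5, 12.1 and 20.8 CPM in Het_4OHT and at 0.0807, 0 and 0.0850 CPM in FF_4OHT, and in ethanol at 14.5 to 29.4 CPM in Het and 0 counts in FF. These counts are over the gene and do not measure the mature microRNA, which RefSeq gives (GRCm38.p6) as follows, with the seed, bases 2 to 8, in capitals.
mmu-miR-682: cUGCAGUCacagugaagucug

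Several genes parted all Het libraries from all others in the series, WT included. With plain CPM and a gap of more than 4-fold between the nearest libraries (pseudocount 0.1 CPM), 72 genes were higher in all 6 Het libraries than in all 12 WT and FF libraries, and 57 were lower. Aldoart1, a retrocopy of the aldolase gene, was at 8.34 to 13.3 CPM in Het and 0 to 0.0760 CPM elsewhere, while Aldoa itself was at 2730 to 3920 and 1440 to 2700 CPM. Rpl17, a core ribosomal protein gene, was at 43.1 to 115 CPM in Het and 782 to 1130 CPM in the other libraries. Rpl15, at 161 to 257 and 685 to 1050 CPM, and Rpl23a, at 211 to 376 and 923 to 1180 CPM, also parted these libraries, with gaps under 4-fold. The Het columns form the second block of the deposited table, after a repeated column of gene symbols. Line, genotype and any difference in how the blocks were aligned or counted cannot be told apart, and ribosomal protein genes have many near-identical copies between which reads can be split, so these differences are uncertain.

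Cytosolic ribosomal protein genes as a list depended on Het_4OHT A. With all 6 libraries 13 of 81 were higher in FF (16.0%, against 7.67% of all genes) and none lower (median 0.37). Of these 13, 11 were higher in ethanol too, where 19 of 80 were called (23.8%, against 6.3% of all genes, median 0.37). Without Het_4OHT A 66 of 81 were higher (81.5%, against 18.3% of all genes, median 0.86). All 81 were higher in Het_4OHT A than in both Het_4OHT B and C, by a median of 0.98 over their mean on the log2 scale. Their summed level was 86860 CPM in Het_4OHT A, 40910 and 53620 CPM in Het_4OHT B and C, and 80050 to 89300 CPM in FF_4OHT. Het_4OHT A thus lay within the FF range and the other 2 Het libraries below it. The Rn45s share of Het_4OHT A, 1.48%, was also above that of B and C, and its part in these values was not tested.

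**Figure D4:**
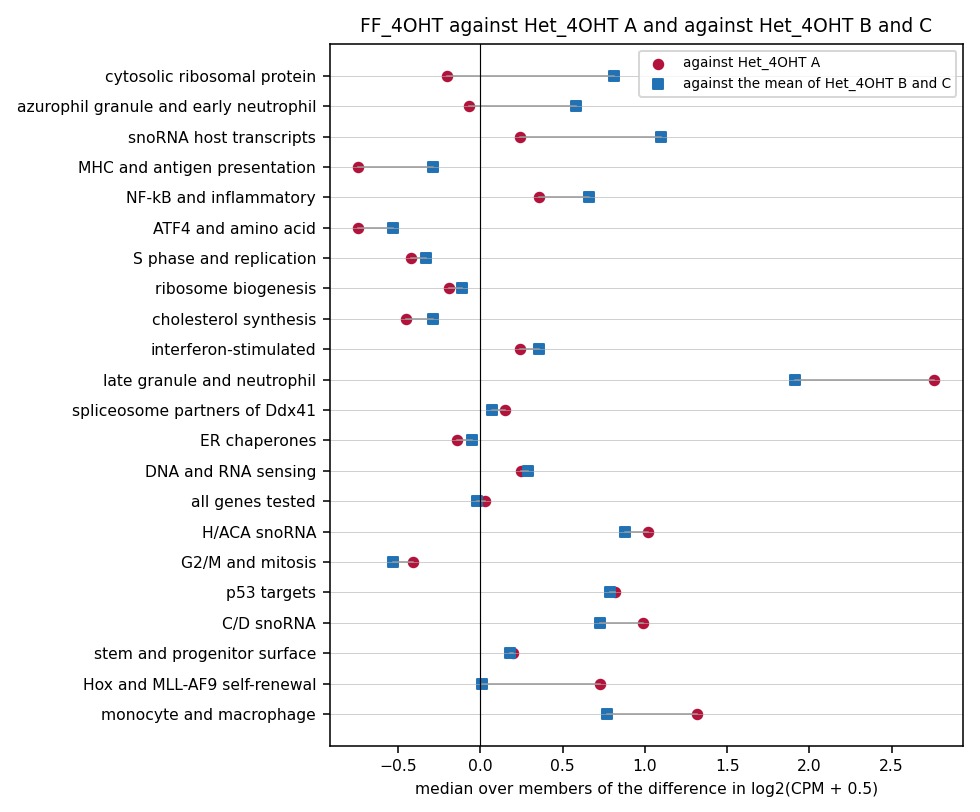
For each gene list, the median over its members of the FF_4OHT mean minus Het_4OHT A (circles) and minus the mean of Het_4OHT B and C (squares), on the scale of log2(CPM + 0.5). The ribosomal protein, azurophil granule and snoRNA host lists are nearer 0 or below it against A, the monocyte, late granule and Hox lists are farther from 0 against A, and the p53 targets do not separate the 2 (0.82 and 0.79).

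Myeloid genes differed in several ways. Late granule and neutrophil genes were higher in FF, 15 of 20 (75.0%, against 7.67% of all genes) with none lower (median 2.69). Of the 15, 8 were called in ethanol, where 17 members were tested (median 1.59). Camp, an antimicrobial peptide gene, was at 54.4, 30.9 and 30.9 CPM in FF_4OHT and 1.4, 0.484 and 0.304 CPM in Het_4OHT (log2 5.72, edgeR adjusted p = 0.00145), and the ethanol difference was 5.68 (0.0064, and 4.94 without FF_EtOH C). Csf3r, the G-CSF receptor gene (1.81 and 1.36), and Itgb2l (4.98 and 3.68) were likewise called in both treatments. No member was called in the difference of differences (median 1.15), nor with the replicate block within Het. In bulk libraries, more cells of a type and more RNA per cell cannot be told apart.

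Of the monocyte and macrophage genes, 10 of 31 were higher in 4OHT (32.3%, against 7.67% of all genes) and none lower (median 1.03). In ethanol 1 was higher and 3 lower of 30 (3.3% and 10.0%, against 6.3% and 8.07% of all genes, median -0.02). None of the 10 was called in ethanol, and no member in the difference of differences (median 1.05). With the unplanned replicate block within Het 11 of 32 were called, all positive (against 1.01% of all genes). Without Het_4OHT A, 11 of 32 were higher and 4 lower (34.4% and 12.5%, against 18.3% and 20.9% of all genes). Tlr2, a sensor of bacterial lipoproteins, was at 58.2, 65.9 and 76.1 CPM in FF_4OHT and 17.7, 27.2 and 27.4 CPM in Het_4OHT (log2 1.48, edgeR adjusted p = 0.00434), with 0.35 in ethanol (0.15). Clec4n, the fungal receptor dectin-2, differed by 2.41 and -0.15 (0.10 without FF_EtOH C, not called). Gpnmb, of phagocyte lysosomes, differed by 2.47 and 0.12 (0.69 without FF_EtOH C, not called). Gpnmb was at 1.28 CPM in FF_EtOH C and at 51.1 and 60.1 CPM in FF_EtOH A and B.

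Lyz1, a lysozyme gene with a near-identical neighbour, Lyz2, was at 126, 170 and 167 CPM in FF_4OHT and at 0.159, 0.171 and 0.0338 CPM in Het_4OHT. Het_EtOH B, at 9.20 CPM, stood far above Het_EtOH A and C (0.197 and 0.0345 CPM). The log2 difference was 10.23 in 4OHT and 2.99 in ethanol (edgeR adjusted p = 0.265), and the split of reads between both copies is uncertain. Cybb, the NADPH oxidase subunit gene, and Eps8 were higher in FF with all 6 libraries (1.65 and 1.56, edgeR adjusted p = 0.0413 and 0.0454) and not called without Het_4OHT A (1.4 and 1.34, 0.0513 and 0.0575); in both, Het_4OHT B was the highest Het_4OHT library. Epha7, an ephrin receptor gene, went the same way on the lower side (-1.36, then -1.13, 0.0542).

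Azurophil granule genes, of the earlier neutrophil stage, had 3 higher and 1 lower of 17 (17.6% and 5.9%, against 7.67% and 10.4% of all genes, median 0.28). Without Het_4OHT A 11 were higher (64.7%, against 18.3% of all genes, median 0.58). In ethanol 9 of 17 were higher (52.9%, against 6.3% of all genes) and 1 lower (median 0.60), or 7 and 2 without FF_EtOH C. Mpo, myeloperoxidase, was at 558, 332 and 209 CPM in FF_4OHT and 115, 77.4 and 66.0 CPM in Het_4OHT (log2 2.09), with a wider gap in ethanol (3.62). Igsf6 was 2.04 higher in 4OHT and 1.46 in ethanol, and Ctsc, the protease that activates granule enzymes, 0.66 and 0.12. Cebpa, a transcription factor of the lineage, was lower in both (-1.20 and -0.76). Het_4OHT A exceeded Het_4OHT B and C at 15 of the 17 genes.

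**Figure D5:**
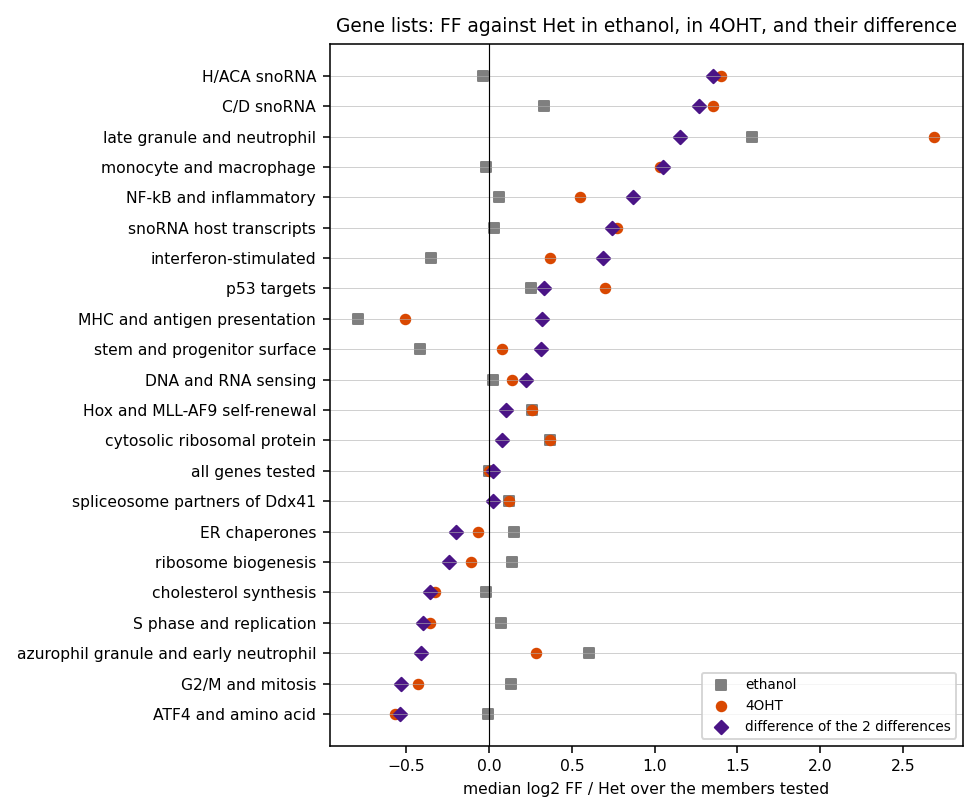
Median log2 FF to Het difference over the tested members of each gene list in ethanol (squares) and 4OHT (circles), and of the difference of differences (diamonds). The H/ACA snoRNA, snoRNA host and monocyte lists lie near 0 in ethanol (-0.04, 0.03 and -0.02) and above it in 4OHT, the ATF4, G2/M and S phase lists below it in 4OHT, and the MHC and late granule lists are displaced in both.

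Of 21 antigen presentation genes, 9 were called lower in FF in 4OHT (42.9%, against 10.4% of all genes, median -0.51). In ethanol 11 were lower (52.4%, against 8.07% of all genes, median -0.79). None was higher in either, and all 9 were among the 11. H2-Ab1, an MHC class II chain, was at 1.57, 1.36 and 3.87 CPM in FF_4OHT and 41.5, 48.7 and 19.4 CPM in Het_4OHT (log2 -4.01, ethanol -5.17). Tap2, a peptide transporter subunit (-0.93 and -0.54), Psmb8, an immunoproteasome subunit (-1.01 and -0.82), and H2-Q4 (-1.27 and -1.70) were called in each, except that the ethanol difference of Tap2 was -0.42 without FF_EtOH C (edgeR adjusted p = 0.0554); class I genes share sequence, which leaves H2-Q4 uncertain.

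Interferon-stimulated genes were split: 4 of 35 were higher and 2 lower in 4OHT (11.4% and 5.7%, against 7.67% and 10.4% of all genes, median 0.37). In ethanol 2 were higher and 6 lower of 34 (5.9% and 17.6%, against 6.3% and 8.07% of all genes, median -0.35). None was called in the difference of differences (median 0.69), or 2 with the replicate block within Het. Oas2, an activator of RNase L, was at 15.9, 19.6 and 23.9 CPM in FF_4OHT and 2.07, 3.79 and 1.55 CPM in Het_4OHT (log2 3.0, ethanol 1.88, both called). Gbp3, a guanylate-binding protein gene, was lower in both (-2.47 and -2.20). Ddx58, the viral RNA sensor RIG-I, differed by 1.03 in 4OHT (edgeR adjusted p = 0.00578) and 0.19 in ethanol (0.532). With scaling by library totals the split was 3 higher and 3 lower. Without Het_4OHT A it was 7 and 5 (20.0% and 14.3%, against 18.3% and 20.9% of all genes). In the list of nucleic acid sensors 2 of 21 were higher (9.5%, against 7.67% of all genes) and none lower. It was 7 and 2 without Het_4OHT A (33.3% and 9.5%), and 1 and 1 with scaling by library totals. The 2 were Ddx58 and Mb21d1, the gene of the DNA sensor cGAS (0.63, and 0.59 in ethanol).

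In the NF-kB and inflammatory list 7 of 27 were higher and 1 lower in 4OHT (25.9% and 3.7%, against 7.67% and 10.4% of all genes, median 0.55). It was 11 and 1 of 28 without Het_4OHT A (39.3% and 3.6%, against 18.3% and 20.9% of all genes). In ethanol 2 were higher and 1 lower (7.4% and 3.7%, against 6.3% and 8.07% of all genes, median 0.06). Relb was at 8.47, 5.16 and 7.65 CPM against 2.67, 2.16 and 2.10 CPM (log2 1.62, edgeR adjusted p = 0.00782, against 0.30 in ethanol, 0.623). Nfkb2 (1.14 and 0.68) was called in both treatments, though not in ethanol without FF_EtOH C (0.52, edgeR adjusted p = 0.0781), and Icam1, an adhesion molecule, in 4OHT (0.71 and 0.10). Traf1, an adaptor of tumor necrosis factor receptors, was the lower one in both (-3.24 and -4.58).

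Of 26 Hox and MLL-AF9 program genes, 9 were higher and 5 lower in 4OHT (34.6% and 19.2%, against 7.67% and 10.4% of all genes, median 0.26). Without Het_4OHT A, 9 were higher and 8 lower (34.6% and 30.8%, against 18.3% and 20.9% of all genes), and the median was 0.04. In ethanol 5 were higher and 2 lower (19.2% and 7.7%, against 6.3% and 8.07% of all genes, median 0.26). Hoxa5 was at 80.8, 70.4 and 77.7 CPM in FF_4OHT and 24.1, 23.9 and 22.8 CPM in Het_4OHT (log2 1.70, ethanol 0.89, both called), and Hoxa10 differed by 1.10 and 0.83. Hoxa3, also of the HoxA cluster, differed by 1.58 (ethanol 0.58, not called). Pbx3, a Hox cofactor, was at 9.69, 8.35 and 7.91 CPM against 41.9, 50.9 and 62.0 CPM (-2.57, ethanol -2.10). Among progenitor surface genes, 3 of 17 were higher and 1 lower (17.6% and 5.9%, against 7.67% and 10.4% of all genes, median 0.08). With scaling by library totals it was 1 and 2 (5.9% and 11.8%, against 6.0% and 13.5%). Without Het_4OHT A it was 4 and 5 of 18 (22.2% and 27.8%, against 18.3% and 20.9% of all genes). In ethanol 2 of 17 were higher and 5 lower (11.8% and 29.4%, against 6.3% and 8.07% of all genes, median -0.42). Flt3 was at 0.0850 to 0.266 CPM in FF_4OHT and 5.47 to 6.55 CPM in Het_4OHT (-5.15, ethanol -5.14), and Il6ra was 1.30 higher (0.87 in ethanol).

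Cholesterol synthesis genes had 1 higher and 5 lower of 25 in 4OHT (4.0% and 20.0%, against 7.67% and 10.4% of all genes, median -0.33). Without Het_4OHT A it was 1 and 11 (4.0% and 44.0%). In ethanol 2 were higher and 1 lower (8.0% and 4.0%, against 6.3% and 8.07% of all genes, median -0.02). Idi1, an isomerase of the pathway, was higher in both treatments (1.96 and 2.33). Nsdhl (-0.89) and Acat2 (-0.73) were lower in 4OHT, with -0.16 and -0.05 in ethanol. Of 21 endoplasmic reticulum chaperone genes 2 were lower (9.5%), Hsp90b1 (-0.56) and Herpud1 (-0.54). Of 39 ribosome biogenesis genes 1 was lower (2.6%), Polr1a, the large subunit of RNA polymerase I (-0.66). Both shares were below the 10.4% of all genes. Without Het_4OHT A the chaperone list had 2 higher and 4 lower (9.5% and 19.0%), and the ribosome biogenesis list 4 higher and 6 lower (10.3% and 15.4%). These shares were below those of all genes there, 18.3% and 20.9%.

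Lists of other cell types had few tested members. Of 5 stromal and endothelial genes, 3 were lower and 2 higher in FF: Thy1 was at 7.65 to 13 CPM in FF_4OHT and 155 to 271 CPM in Het_4OHT (log2 -4.34, ethanol -4.13), Pecam1 differed by -1.41 (ethanol -1.30, called only without FF_EtOH C, at -0.92) and Pdgfrb by -5.26, while Lepr was 3.69 and Col1a1 1.37 higher. The summed level of that list was 134 to 173 CPM in FF_4OHT and 517 to 685 CPM in Het_4OHT, with Dcn, Lum and Emcn at 0 counts in all 6. The dendritic list had 2 higher and 2 lower of 6 (33.3% each, against 7.67% and 10.4% of all genes). Xcr1 had 85 counts in FF_4OHT and 0 in Het_4OHT, at least 34.8-fold higher. In ethanol it had 49 counts in FF and 0 in Het, at least 23.2-fold higher. Cd300c was 3.14 higher on the log2 scale, Tcf4 differed by -1.21, and Flt3 is also on this list. The lymphoid list had no call among 3 tested members, and Lck was at 7.42 to 8.39 CPM in FF_4OHT and 7.63 to 12.5 CPM in Het_4OHT. In the mast cell list Gata2 was lower (-2.20) and Kit higher (0.48), in the erythroid list Car2 was higher (1.70) and Gata1 lower (-2.61) of 4 tested, and in the megakaryocyte list Fli1 (0.54) was the one call among 5.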

How the data were processed

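Per the submitters' processing notes, the tools were HISAT2 2.0.5 and featureCounts 1.5.2 of Subread, with CASAVA 1.4 and FastQC 0.11.7, and the build mm10. The authors deposited 1 table of raw counts by gene symbol. Strand setting, annotation and treatment of reads with several matches: not given in the sources used here. Coordinates come from GENCODE M21 (GRCm38), matched by symbol.

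The comparison was fitted to its 6 libraries alone, and likewise ethanol, in R 4.3.3 on deposited counts by edgeR 4.0.16: TMM, filterByExpr (minimum count 10), robust quasi-likelihood F test, Benjamini-Hochberg adjustment over all genes tested and a threshold of 0.05. The difference of differences used 12 libraries. Standard errors derive from the F statistic. Tables were made in Python 3.11.15 with pandas 2.3.3. Simulated counts for the treated comparison held 200 changed genes among 12310. The test recovered 43.3% of 30 genes scored at 1.5-fold, 92.5% of 67 at 2-fold and 100% of 66 at 4-fold. The rest of the 200 were not scored, so the 1.5-fold rate covers only part of the genes changed that much. The simulation gave all genes the same dispersion and held no library that stood apart as Het_4OHT A did. These rates therefore do not measure recovery in the real libraries, where it may be lower. A group with no count was given a floor of 3 counts; intervals and floors cover counting error only. Differences in depth limit low genes most.

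Members, lists and the naming rule were chosen with earlier results of these data known. The rule names Ddx41, then up to 7 genes in each direction called in both treatments, up to 7 called beyond ethanol, up to 3 of opposite sign, up to 3 each way that turn on Het_4OHT A, and up to 4 called members per list with the smallest adjusted p (at least 1 CPM). Outside the lists it asked for at least 10 CPM, and, except for genes that turn on Het_4OHT A, for groups that do not overlap and a call without Het_4OHT A. Sf3b4, Eftud2, Snora81, Snora62, Snord2, Snord99, Skida1, Snhg4, Kif23, Kif18b, Phgdh, Aldh18a1, Slc1a5, Col1a1, Gata1 and the genes described by table block were named after their values were seen. No list was tested as a set. Library letters did not pair FF with Het: deviations from group means correlated at -0.13, 0.13 and -0.31 for A, B and C in 4OHT. Between ethanol and 4OHT they correlated at 0.52, 0.78 and 0.44 within Het and 0.19, 0.35 and 0.08 within FF, which is why a block within Het was added. Alternatives were other scalings, filters, DESeq2 1.42.0, limma 3.58.1 voom, larger fits, a replicate block and leaving out each library.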

Additional observations from a re-analysis of the deposited data

Results flagged for a closer look

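The following genes had a log2 FF to Het difference in 4OHT that differed from the one in ethanol by the edgeR test of the difference of differences. The difference was negative for Ddx41 (-1.80), Dhx16 (-1.70), Plekhh2 (-2.34), Bcat1 (-2.23), Ccdc107 (-1.82), Gpt2 (-0.79), Med25 (-1.17), Ssbp4 (-1.29), Kif20a (-0.84), Rfc5 (-0.95) and Pold1 (-0.82). It was positive for Snora70 (2.85), Acpp (1.66), Cd80 (1.99), Snhg1 (1.51), Slc38a7 (1.04), Rab40c (1.30), Tti2 (1.18) and Csf2rb2 (1.33). Without the library labelled FF_EtOH C, 12 of these 19 missed the threshold of 0.05: Snora70, Acpp, Snhg1, Slc38a7, Plekhh2, Bcat1, Ccdc107, Gpt2, Csf2rb2, Ssbp4, Kif20a and Pold1, with edgeR adjusted p from 0.0525 to 0.0708. For Matk (-1.79), Parvb (-1.86) and Ankrd13b (-1.83) it was called without FF_EtOH C and not with all 12 libraries; that library was below FF_EtOH A and B in all 3 genes: 44.9 against 62.4 and 77.9 CPM in Matk, 5.62 against 28.4 and 31.0 CPM in Parvb, and 6.26 against 15.6 and 18.5 CPM in Ankrd13b.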

How the results depend on the processing

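The treated difference, 2238 genes with the settings above, was 855 at an adjusted p of 0.01, 1321 with a 2-fold limit, 3588 in a fit to all 18 libraries and 1329 with a replicate block by letter; leaving out 1 library gave 813 to 4956. The ethanol difference, 1754 genes, was 696 at an adjusted p of 0.01, 1050 with a 2-fold limit and 1087 with at least 5 CPM in 3 libraries; leaving out 1 library gave 929 (Het_EtOH B; 953 for Het_EtOH C) to 1850. The difference of differences, 57 genes, was 1 at an adjusted p of 0.01, 97 with scaling by library size, 107 with at least 5 CPM in 3 libraries, 568 with DESeq2, 321 in the fit to 18 libraries and 1 with a replicate block by letter. It was 373 without Het_4OHT A and FF_EtOH C, 300 with a replicate block within Het and 469 with that block and without FF_EtOH C, the last 2 added after the data had been seen. Leaving out 1 library gave 1 to 300. Where it gave 1 gene, 1264 to 1684 genes had an unadjusted p under 0.05. The share of treated calls also called in ethanol, 45.5%, was 28.7% without Het_4OHT A and 29.1% without both libraries. The share of ethanol calls also called in 4OHT, 57.5%, was 78.5% and 77.1% in the same fits. The cause was not tested, apart from the smaller sample in fits that leave libraries out. Of 121 named genes, none changed sign under these alternatives. The treated call was lost by 26, 30 and 28 without FF_4OHT A, B and C, and by 3, 7 and 21 without Het_4OHT A, B and C. At an adjusted p of 0.01 it was lost by 30, and with the 2-fold limit by 26. The replicate block by letter lost 15 and scaling by library size 7.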
